A study of Homo sapiens with 14 samples.

Results

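ADH6, ANXA13 and IQGAP2 were followed across the 6 groups of an RNA-seq experiment on HT-29, a human colorectal carcinoma line whose cells can take on features of the absorptive intestinal epithelium. They are 3 of the 36555 genes of the count table, found by gene name, and all 3 were among the 22179 genes with enough counts to be tested. They were picked because their levels with TNF lay far below the control levels. Values that involve the control or the TNF-only libraries are therefore given as description without a test, and tests are confined to libraries that received ferrostatin-1 or liproxstatin-1.

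The study asked why these inhibitors of ferroptosis, a cell death that depends on iron and on peroxidised lipids, act differently while TNF kills HT-29 cells by apoptosis. The analysis used 14 libraries of wild-type cells, all of this 1 line. Control cells (n = 3) were kept in medium with 0.1% DMSO. The ferrostatin-1 (n = 2) and liproxstatin-1 (n = 2) groups received 20 uM of the compound for 72 h without TNF. The TNF group (n = 2) received human recombinant TNF at 100 ug/ml, the dose as labelled, for 72 h. The remaining groups received the same TNF with 20 uM ferrostatin-1 (n = 3) or with 20 uM liproxstatin-1 (n = 2). Replicates are described as technical, so p-values measure only the spread between these samples. The sources used here do not say whether DMSO was also present in the other groups.

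ADH6 encodes a zinc-dependent alcohol dehydrogenase, one of a clustered family that oxidises alcohols, retinol among them, to aldehydes. ANXA13 encodes an annexin of intestinal and renal epithelium, a protein that binds acidic phospholipids in the presence of calcium and takes part in vesicle transport to the plasma membrane. IQGAP2 encodes a scaffold that binds actin, calmodulin and the active forms of the small GTPases Rac and Cdc42, and is best known from liver. TNF acts through receptors that turn on NF-kB and MAP kinase signalling and, under some conditions, caspases.

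In the coordinates of the deposited table, ADH6 (ENSG00000172955) lies on chromosome 4 from 99202638 to 99219246 on the minus strand and has 7 transcripts. IQGAP2 (ENSG00000145703) lies on chromosome 5 from 76403285 to 76708132 on the plus strand, with 10 transcripts. The sources used here do not give the genome build of the table, but its 5′ ends of these genes coincide with transcription starts of RefSeq on GRCh38.p14, whose promoter entries matched both.

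The 250 bases before the start are shown for these 2 genes, the only members with an entry in the promoter set used here. The stretches shown are unlike in base composition, while the levels of these genes moved together. Both stretches are printed 5′ to 3′ on the gene's own strand. The ADH6 stretch is chr4:99219247-99219496 and the IQGAP2 stretch chr5:76403035-76403284, where capitals mark the match to the GC box (GGGCGG).
ADH6: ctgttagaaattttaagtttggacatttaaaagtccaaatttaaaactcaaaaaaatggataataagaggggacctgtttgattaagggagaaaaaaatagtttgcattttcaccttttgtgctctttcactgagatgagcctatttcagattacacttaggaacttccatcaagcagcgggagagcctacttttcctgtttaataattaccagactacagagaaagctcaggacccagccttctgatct
IQGAP2: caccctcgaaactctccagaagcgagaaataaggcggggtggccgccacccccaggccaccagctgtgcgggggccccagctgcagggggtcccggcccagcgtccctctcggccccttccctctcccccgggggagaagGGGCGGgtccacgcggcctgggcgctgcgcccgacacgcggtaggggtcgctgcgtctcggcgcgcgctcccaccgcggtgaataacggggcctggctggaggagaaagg

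The ADH6 stretch held 36.4% G and C, at percentile 7.85 of 35114 promoters, and the IQGAP2 stretch 73.6%, at percentile 87.7. The GC box in IQGAP2 began 110 bases before the start and occurred in 42.6% of the 35114 promoters. RefSeq gives 2 further starts of IQGAP2, at 76547409 and 76609111, and the deposited gene counts do not separate transcripts from these starts. The 250 bases before them held 40% and 40.8% G and C (percentiles 13.4 and 14.9), closer to ADH6. The contrast in base composition thus holds for the first IQGAP2 start only. The 5 motifs were chosen after the sequences had been read and were searched on both strands, and no matches of different motifs overlapped in these windows. TATAAA (10.7% of promoters) was found only before the start at 76609111, whereas CCAAT (32% of promoters), TGANTCA for AP-1 (6.57%) and the NF-kB consensus (9.96%) had no match in any of these windows. A match is a run of letters and not a binding site, and the lack of one says nothing about a factor.

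All 3 genes took the same order over the 6 group means: liproxstatin-1 highest, then control, ferrostatin-1, TNF with liproxstatin-1, TNF with ferrostatin-1 and TNF lowest. The places of control and TNF follow in part from how the members were chosen. For ANXA13 the top 2 means were nearly equal (3.19 and 3.16 CPM). For this order, and for gaps below between single groups that involve control or TNF alone, the share over all genes was not counted. Levels are given in CPM, counts scaled to the size of the library, after TMM scaling, which adjusts each library for composition. Total counts per library ran from 59913850 to 75838597. Per gene length, in the authors' FPKM, IQGAP2 was the most abundant of the 3 in control cells (5.80 FPKM), ahead of ADH6 (0.842 FPKM) and ANXA13 (0.787 FPKM). Because RNA was taken from whole cultures, fewer cells that express a gene and less of its RNA per cell cannot be told apart.

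ADH6 was a low but measurable transcript without TNF. It stood at 3.48, 5.23 and 3.00 CPM in the controls, at 1.63 and 1.76 CPM with ferrostatin-1 and at 4.11 and 5.11 CPM with liproxstatin-1. With TNF alone it stood at 0.0529 and 0.0660 CPM, which are 4 and 5 counts. It stood at 0.288, 0.111 and 0.157 CPM with TNF and ferrostatin-1 (18, 8 and 10 counts) and at 0.625 and 0.395 CPM with TNF and liproxstatin-1 (40 and 29 counts). Every library with TNF was thus below every library without it, and among the libraries with TNF the 3 groups did not overlap. Liproxstatin-1 overlapped the controls, whereas both ferrostatin-1 libraries were below all 3 controls.

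ANXA13 (ENSG00000104537, chromosome 8 from 123680794 to 123737402 on the minus strand, 4 transcripts) was about as scarce as ADH6 without TNF. It reached 2.75, 3.98 and 2.73 CPM in the controls, 1.48 and 1.70 CPM with ferrostatin-1 and 2.21 and 4.17 CPM with liproxstatin-1. TNF library 1 held 8 counts of it (0.106 CPM) and TNF library 3 held 0, which allows up to 0.0396 CPM (3 counts, covering counting error only). It reached 0.112, 0.332 and 0.315 CPM with TNF and ferrostatin-1 (7, 24 and 20 counts), and 1.91 and 1.02 CPM with TNF and liproxstatin-1 (122 and 75 counts). The higher library with TNF and liproxstatin-1 lay above both libraries with ferrostatin-1 alone, so ANXA13, unlike the other members, did not separate all libraries with TNF from all without. The lowest library with TNF and ferrostatin-1 was only just above the higher TNF library.

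IQGAP2 was well covered, with a lowest value of 2.50 CPM. It stood at 49.6, 46.8 and 47.9 CPM in the controls, at 32.2 and 33.8 CPM with ferrostatin-1 and at 52.4 and 52.0 CPM with liproxstatin-1. TNF library 1 had 2.50 CPM and TNF library 3 had 8.74 CPM. Levels were 10.2, 8.88 and 8.99 CPM with TNF and ferrostatin-1 and 20.1 and 19.0 CPM with TNF and liproxstatin-1. No 2 groups that follow each other in the order overlapped, although TNF library 3 lay just under the lowest library with TNF and ferrostatin-1. The gap between the TNF libraries was the widest within any group for this gene, and what set it was not tested.

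**Figure D1:**
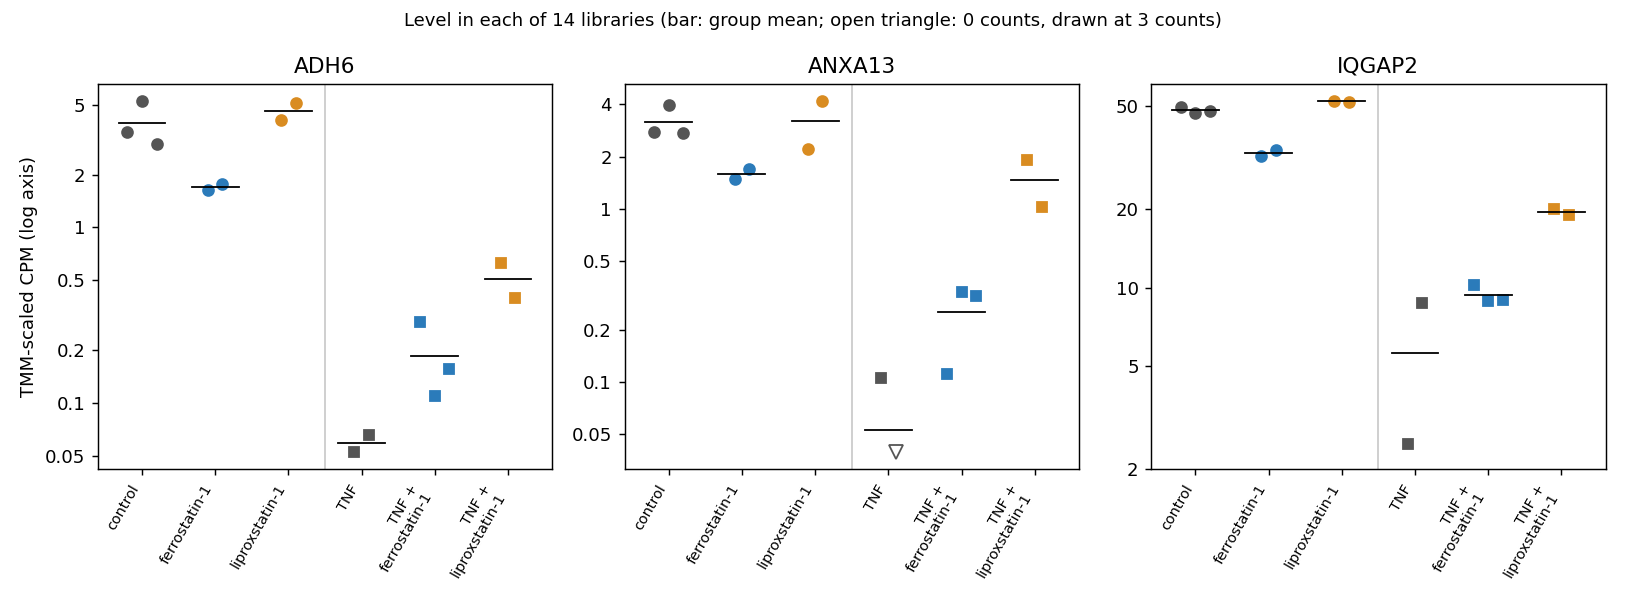
Level of ADH6, ANXA13 and IQGAP2 in each library, in CPM after TMM scaling on a log axis, by group; points are libraries, bars are group means, and an open triangle stands for 0 counts, drawn at the CPM of 3 counts. ADH6 and IQGAP2 show all 7 libraries with TNF below all 7 without, while ANXA13 with TNF and liproxstatin-1 (1.91 and 1.02 CPM) reaches the range of ferrostatin-1 alone (1.48 and 1.70 CPM).

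The position of all 7 libraries with TNF below all 7 without was found for ADH6, where the lowest library without TNF (1.63 CPM) was set against the highest with it (0.625 CPM), and for IQGAP2 (32.2 against 20.1 CPM). It was not found for ANXA13 (1.48 against 1.91 CPM). Of all genes tested, 4.27% showed it. Because the members were chosen on part of these libraries, nothing is read from their count.

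TNF alone left a small part of each transcript. ADH6 averaged 3.90 ± 1.17 CPM in the controls (SD, n = 3) and 0.0595 ± 0.00926 CPM with TNF (SD, n = 2), which is 1.52% of control. ANXA13 averaged 3.16 ± 0.717 and 0.0529 ± 0.0749 CPM, or 1.68%. IQGAP2 averaged 48.1 ± 1.39 and 5.62 ± 4.41 CPM, or 11.7%, which was 18.2% by TNF library 3 alone and 5.20% by TNF library 1 alone. For ADH6 and ANXA13 the name of nearly lost genes thus matched the values, while IQGAP2 kept several CPM.

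The fitted log2 differences between TNF and control were -5.99 ± 0.49 for ADH6, -5.85 ± 0.82 for ANXA13 and -3.10 ± 0.38 for IQGAP2 (SE). In order from the lowest of the 22179 genes they were at places 124, 147 and 417. These differences chose the members and support nothing. In that comparison 6.44% of genes were called lower and 8.24% higher (edgeR's quasi-likelihood test, Benjamini-Hochberg adjusted p under 0.05, the rule for every call made here).

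Within ferrostatin-1, all 3 genes fell with TNF. ADH6 averaged 1.70 ± 0.0924 CPM without TNF (SD, n = 2) and 0.185 ± 0.0920 CPM with it (SD, n = 3). Its fitted log2 change was -3.19 ± 0.38 (SE, 95% interval -4.01 to -2.37, adjusted p = 0.000174), or 9.14-fold lower. ANXA13 averaged 1.59 ± 0.158 and 0.253 ± 0.122 CPM, with a log2 change of -2.63 ± 0.60 (-3.95 to -1.32, adjusted p = 0.0103). IQGAP2 averaged 33.0 ± 1.15 and 9.37 ± 0.760 CPM, with a log2 change of -1.81 ± 0.33 (-2.53 to -1.10, adjusted p = 0.00270). No library with TNF reached a library without it for any of the 3, a position held by 27.2% of all genes tested. In this comparison 9.36% of all genes tested were called lower and 8.76% higher, and the members were at places 262, 338 and 637 from the lowest. The call of ANXA13 was lost without ferrostatin-1 library 3 (adjusted p = 0.0574), and those of ANXA13 (adjusted p = 0.167) and IQGAP2 (adjusted p = 0.174) were lost when a change beyond 2-fold was asked for.

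Within liproxstatin-1, ADH6 and IQGAP2 fell with TNF and ANXA13 did not pass the test. ADH6 averaged 4.61 ± 0.702 CPM without and 0.510 ± 0.163 CPM with TNF (SD, n = 2 in each), with a log2 change of -3.18 ± 0.41 (-4.07 to -2.29, adjusted p = 0.000545). IQGAP2 averaged 52.2 ± 0.294 and 19.6 ± 0.745 CPM, with a log2 change of -1.41 ± 0.37 (-2.22 to -0.61, adjusted p = 0.0239). ANXA13 had 3.19 ± 1.39 CPM without and 1.46 ± 0.626 CPM with TNF, a log2 difference of -1.13 ± 0.62 whose interval ran from -2.48 to 0.23 (adjusted p = 0.274). The groups did not overlap for any member, as for 28.7% of all genes tested in this direction, and the lowest ANXA13 library without TNF (2.21 CPM) was close to the highest with it (1.91 CPM). Among all genes tested 7.03% were called lower and 7.57% higher.

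The calls within liproxstatin-1 differed in how far they held. That of ADH6 held in all 12 alternative settings. That of IQGAP2 was lost without any 1 of the 4 libraries compared (adjusted p = 0.0926 to 0.141), with a replicate block (adjusted p = 0.0902) and when a change beyond 2-fold was asked for. ANXA13 passed with limma voom (adjusted p = 0.0210) and in no other setting.

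**Figure D2:**
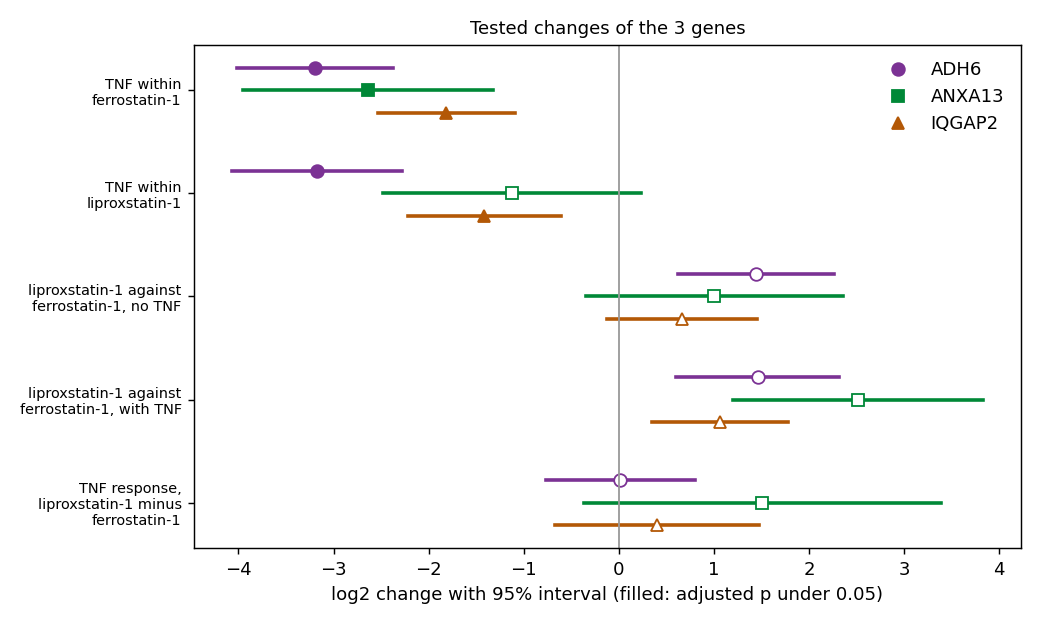
Fitted log2 differences of ADH6, ANXA13 and IQGAP2 with 95% intervals in the 5 comparisons that use neither the control nor the TNF-only libraries; filled markers passed the test. The intervals of TNF within ferrostatin-1 lie below 0 for all 3 genes, and that of ANXA13 within liproxstatin-1 crosses 0. For the difference between TNF responses, the interval of ADH6 is drawn too narrow.

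The share of each transcript that remained with TNF was set side by side over the 3 backgrounds, each as a ratio of group means with its lowest and highest pair of libraries. For ADH6 it was 1.52% without a compound (1.01% to 2.20%), 10.9% in ferrostatin-1 (6.29% to 17.7%) and 11.1% in liproxstatin-1 (7.73% to 15.2%). For ANXA13 it was 1.68% (0% to 3.88%), 15.9% (6.59% to 22.5%) and 45.9% (24.5% to 86.4%). For IQGAP2 it was 11.7% (5.05% to 18.7%), 28.4% (26.3% to 31.9%) and 37.5% (36.4% to 38.7%).

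The share without a compound was the lowest in each gene, but it is the value on which the genes were chosen, so nothing is read from its place. ADH6 kept nearly the same share in both compounds. ANXA13 kept more in liproxstatin-1 than in ferrostatin-1 by means, with a share of 35.1% without liproxstatin-1 library 1 and 66.4% without liproxstatin-1 library 3.

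**Figure D3:**
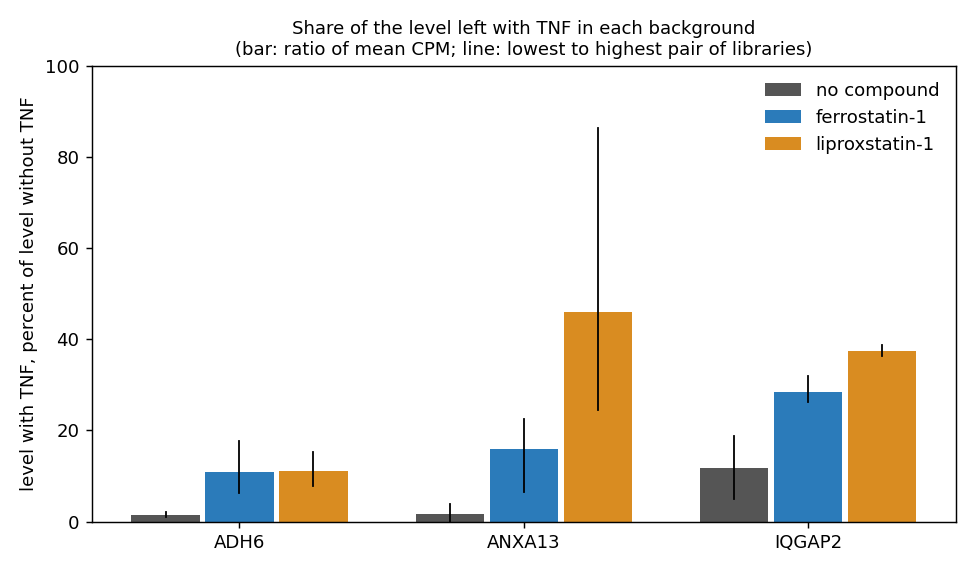
Percent of the level without TNF that remained with TNF, by gene, without a compound, in ferrostatin-1 and in liproxstatin-1; bars are ratios of mean CPM and lines run from the lowest to the highest pair of libraries. The share without a compound (1.52%, 1.68% and 11.7%) is the value on which the genes were chosen, and between the compounds ADH6 has nearly equal bars.

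A share depends on the level it starts from, and the starting levels were not equal. With ferrostatin-1 alone the members stood at 43.4% (ADH6), 50.4% (ANXA13) and 68.6% (IQGAP2) of control, and with liproxstatin-1 alone at 118%, 101% and 108%. As a percentage of control, the levels with TNF and ferrostatin-1 were 4.75%, 8.02% and 19.5%, and with TNF and liproxstatin-1 13.1%, 46.4% and 40.7%. On either base, every member was higher with TNF and a compound than with TNF alone. The members were chosen for low values in the TNF-only libraries, so nothing is read from this.

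Fitted differences against TNF alone were 1.60 ± 0.50, 2.23 ± 0.82 and 0.74 ± 0.35 on the log2 scale (SE) with ferrostatin-1, for ADH6, ANXA13 and IQGAP2 in turn. With liproxstatin-1 they were 3.06 ± 0.50, 4.74 ± 0.82 and 1.80 ± 0.38. The log2 difference made by TNF was smaller in size than in control cells by 2.80 ± 0.61, 3.22 ± 1.00 and 1.28 ± 0.48 in ferrostatin-1. In liproxstatin-1 it was smaller by 2.82 ± 0.61, 4.72 ± 1.00 and 1.68 ± 0.50. These comparisons share the control or the TNF libraries, on which the genes were chosen, and were not tested.

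The compounds could be compared with each other at the same dose and time. Ferrostatin-1 is an ethyl benzoate with amino and cyclohexylamino groups, and liproxstatin-1 a spiro-quinoxaline amine with a chlorobenzyl group. Each member was higher in liproxstatin-1 than in ferrostatin-1, both without and with TNF, and none of these 6 differences passed the test after adjustment over all genes. The libraries did not overlap in any of them, but with so few libraries 21.1% of all genes tested also had every liproxstatin-1 library above every ferrostatin-1 library without TNF, and 18.0% with TNF.

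Without TNF the log2 difference, liproxstatin-1 minus ferrostatin-1, was 1.44 ± 0.38 for ADH6 (0.62 to 2.26, adjusted p = 0.282). It was 1.01 ± 0.62 for ANXA13 (-0.35 to 2.36, adjusted p = 0.929) and 0.66 ± 0.36 for IQGAP2 (-0.13 to 1.45, adjusted p = 0.872). With TNF it was 1.46 ± 0.39 for ADH6 (0.60 to 2.31, adjusted p = 0.172), 2.51 ± 0.60 for ANXA13 (1.20 to 3.83, adjusted p = 0.112) and 1.06 ± 0.33 for IQGAP2 (0.34 to 1.78, adjusted p = 0.267). The test called 0.104% of all genes without TNF and 0.766% with TNF. The intervals of ADH6 in both settings, and those of ANXA13 and IQGAP2 with TNF, lay above 0 before any adjustment for the number of genes. Other settings called some of them. Without TNF, DESeq2 called ADH6 (adjusted p = 0.0353) and edgeR on the compared groups alone called IQGAP2 (adjusted p = 0.0297). With TNF, DESeq2 called ANXA13 (adjusted p = 0.000404), and edgeR on the compared groups alone called ANXA13 (adjusted p = 0.0427) and IQGAP2 (adjusted p = 0.00357). Limma voom called ADH6 and IQGAP2 without TNF, and ANXA13 and IQGAP2 with TNF. ADH6 with TNF was called in no setting (lowest adjusted p = 0.0512, by DESeq2).

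The change made by TNF was then compared between the compounds. The log2 change in liproxstatin-1 minus that in ferrostatin-1 was 0.02 for ADH6 (95% interval -0.77 to 0.80), 1.51 for ANXA13 (-0.37 to 3.39) and 0.40 for IQGAP2 (-0.67 to 1.47). None passed (unadjusted p = 0.977, 0.105 and 0.431). The ADH6 interval is too narrow, because its SE (0.36) came out below those of the 2 changes it compares (0.38 and 0.41). It does not measure how close these 2 changes are. For ANXA13 the interval allows anything from a slightly larger to a much smaller fall in liproxstatin-1, so its call within ferrostatin-1 and lack of one within liproxstatin-1 do not show a difference between the compounds. Of all genes tested 0% were called by edgeR's quasi-likelihood test, and DESeq2 called 19 and limma voom 8. By edgeR's test 879 of the 22179 genes had an unadjusted p under 0.05, which is a share below 0.05.

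The ratios between the members were compared over the groups. In control, mean FPKM of IQGAP2 was 6.88 times that of ADH6 and 7.36 times that of ANXA13. Set to 1 in control, the ratio of IQGAP2 to ADH6 in CPM was 7.68 with TNF alone, 4.11 with TNF and ferrostatin-1 and 3.12 with TNF and liproxstatin-1, against 1.58 with ferrostatin-1 and 0.919 with liproxstatin-1 without TNF. In the same order the ratio of IQGAP2 to ANXA13 was 6.97, 2.43 and 0.878 with TNF, against 1.36 and 1.07 without it, so with TNF and liproxstatin-1 it lay close to control. The ratio of ADH6 to ANXA13, also set to 1 in control, was 0.908 with TNF, 0.592 with TNF and ferrostatin-1 and 0.282 with TNF and liproxstatin-1, against 0.862 with ferrostatin-1 and 1.17 with liproxstatin-1 alone. These ratios are descriptions of group means.

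Over the 14 libraries, log2 CPM of ADH6 correlated with that of IQGAP2 at a Pearson r of 0.959 (Spearman 0.952). For ADH6 and ANXA13 r was 0.861 (0.947) and for ANXA13 and IQGAP2 0.793 (0.908). These are descriptions over libraries that share their treatment groups, and in each pair the libraries with TNF lie far from those without.

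Some libraries stood apart in ways the groups do not account for. The hair keratin KRT81, chosen after its values were seen, was at 57.05 CPM in ferrostatin-1 library 1 and at 1.45 CPM in ferrostatin-1 library 3, while ADH6, ANXA13 and IQGAP2 were close to equal in these libraries. KRT81 was at 1.05 CPM in library 1 and 14 CPM in library 3 of liproxstatin-1, in which ANXA13 was at 2.21 and 4.17 CPM and IQGAP2 nearly equal. It was at 13.5 and 1.85 CPM in the libraries 1 and 2 with TNF and liproxstatin-1, in which ANXA13 was at 1.91 and 1.02 CPM. KRT81 was at 47.6 to 48.4 CPM in the controls, 43.7 and 50.4 CPM with TNF alone, and 1.47 to 1.79 CPM with TNF and ferrostatin-1. Ferrostatin-1 library 1 was thus nearer to the libraries without a compound than to the others with one. The part of KRT81 in the values of ANXA13 was not tested, nor was what set its level.

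Markers of colon epithelium were present throughout: 9 of 10 were at or above 1 CPM in control, CDX1 being the exception, and their summed level ran from 9386 to 14058 CPM over all libraries. The leukocyte list summed to 18.3 to 26.3 CPM in control, 22.4 to 24.1 in ferrostatin-1 and 32.4 to 32.6 in liproxstatin-1, against 50.6 to 66.7 with TNF, 47.9 to 53.6 with TNF and ferrostatin-1 and 53.5 to 54.6 with TNF and liproxstatin-1. Of its 8 genes CD3E and MS4A1 were not analysed, and 2 were at or above 1 CPM in control. PTPRC, which defines leukocytes, never exceeded 0.0551 CPM. Other genes of the list rose: ITGAM averaged 0.467 CPM in control and 22.3 CPM with TNF alone, and LAPTM5 0.750 and 10.0 CPM. CD68 averaged 10.7 and 16.1 CPM, and CD14 10.9 and 9.83 CPM. Since IQGAP2 and ADH6 are best known from liver, hepatocyte markers were looked up as well: ALB never exceeded 0.0276 CPM and APOB was at 0 in every library. Of the 7 genes FGB was not analysed, and only SERPINA1 was at or above 1 CPM in control. The fibroblast list of 7 genes, 2 of them at or above 1 CPM in control, summed to 3.83 to 13.9 CPM in control and 25.1 to 45.9 CPM with TNF. It summed to 10.0 to 16.5 CPM in ferrostatin-1 and 2.48 to 4.50 CPM with TNF added, and to 4.45 to 14.3 CPM in liproxstatin-1 and 6.45 to 14.5 CPM with TNF added. The 4 endothelial markers summed to between 0.905 and 45.97 CPM over all libraries, with wide spreads within groups. The part of these lists in the members' values was not tested.

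The alcohol dehydrogenase family had 2 other members with enough counts, ADH1C and ADH5. ADH1C, a class I enzyme that oxidises ethanol and retinol, had 1.97, 3.19 and 1.19 CPM in control, 0.829 and 0.821 CPM in ferrostatin-1 and 1.79 and 1.42 CPM in liproxstatin-1. With TNF it had 0.225 and 0.0792 CPM, with TNF and ferrostatin-1 0.0640 to 0.208 CPM, and with TNF and liproxstatin-1 0.125 and 0.109 CPM. It thus shared with ADH6 the low values in every library with TNF. ADH1C fell with TNF within ferrostatin-1 (log2 change -2.72 ± 0.54, adjusted p = 0.00467) and within liproxstatin-1 (-3.76 ± 0.63, adjusted p = 0.00254).

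ADH5 is the widely expressed class III enzyme that oxidises glutathione-bound formaldehyde. Among the genes analysed here, which do not include ADH4, ADH5 is the nearest below ADH6 on chromosome 4. ADH5 had 106.7 to 159.5 CPM over all libraries, and its log2 differences with TNF were 0.11 ± 0.12 within ferrostatin-1 and 0.05 ± 0.13 within liproxstatin-1, neither called. ADH1A, the next gene above, held at most 5 counts in any library. AP002026, which lies over ADH6 on the other strand, held 4 to 40 counts, as many as ADH6 had with TNF. The sources used here do not name the strand setting of the counting, and family members are close in sequence, so the lowest ADH6 and ADH1C values are uncertain.

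Of 33 other tested enzymes of aldehyde and retinoid metabolism, 8 fell and 5 rose with TNF within ferrostatin-1 (median log2 difference -0.11, against 0.02 over all genes). Within liproxstatin-1 7 fell and 6 rose (median -0.05, against 0.06 over all genes). Of all genes tested, 9.36% were called lower and 8.76% higher within ferrostatin-1, and 7.03% and 7.57% within liproxstatin-1. Without any 1 library the counts were 4 to 7 falls and 2 to 5 rises in ferrostatin-1, and 3 falls with 3 to 4 rises in liproxstatin-1. Here and in the lists below, the fewest falls in ferrostatin-1 came without ferrostatin-1 library 1, in some lists tied with another library. In liproxstatin-1 fewer genes fell whichever library was left out, except for annexins without liproxstatin-1 library 3. ALDH1L1, which oxidises formyl tetrahydrofolate, fell in both, with log2 changes of -2.21 ± 0.23 in ferrostatin-1 and -2.34 ± 0.26 in liproxstatin-1 (adjusted p = 6.9e-05 and 0.00021), and in the same order RETSAT, the retinol saturase, fell with -0.92 ± 0.13 and -1.01 ± 0.14. BCO1, which cleaves carotene into retinal, rose with 2.08 ± 0.27 and 2.01 ± 0.29, and ALDH5A1, the succinate semialdehyde dehydrogenase, with 0.90 ± 0.13 and 0.94 ± 0.14. Pairs of log2 changes below keep that order.

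The other 12 annexins moved in both directions. Within ferrostatin-1 5 fell and 1 rose with TNF (median -0.23), and within liproxstatin-1 2 fell and 1 rose (median -0.19). The shares over all genes tested were 9.36% lower and 8.76% higher in ferrostatin-1, and 7.03% and 7.57% in liproxstatin-1. Leaving out any 1 library gave 2 to 4 falls in ferrostatin-1 and 1 to 2 in liproxstatin-1. ANXA10, a gastric annexin, had 46.7 to 57.9 CPM in control, 67.0 and 69.0 CPM in ferrostatin-1 and 49.6 and 61.5 CPM in liproxstatin-1. With TNF it had 10.6 to 17.8 CPM over all 7 libraries, and it fell in both compounds (-2.42 ± 0.17 and -1.82 ± 0.20, adjusted p = 4.9e-06 and 0.00018).

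Unlike ANXA13, ANXA10 was thus not lower with ferrostatin-1 alone than in control, and its groups with TNF lay close together. ANXA9 fell (-0.98 ± 0.12 and -0.59 ± 0.13), while ANXA6, an annexin with more core repeats than the others, rose (0.98 ± 0.15 and 0.93 ± 0.16). ANXA3 had log2 differences of 0.23 ± 0.13 and 0.11 ± 0.14, not called. Of the falls within ferrostatin-1, ANXA8 and ANXA8L1 are near-identical copies whose separate values are uncertain.

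S100 proteins bind calcium and some pair with annexins. Of 8 tested, 2 fell within ferrostatin-1 and 4 within liproxstatin-1, and 0 rose in either. Over all genes tested, 9.36% and 7.03% were called lower, and 8.76% and 7.57% higher, in the same order. S100P fell (-1.42 ± 0.27 and -1.50 ± 0.30), as did S100A16 (-0.67 ± 0.13 and -0.58 ± 0.14). Without any 1 library the count in liproxstatin-1 was 0 to 1.

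IQGAP2 stood apart from its paralogs IQGAP1 and IQGAP3 in these values. IQGAP1, the widely expressed scaffold, had log2 differences with TNF of -0.24 ± 0.32 in ferrostatin-1 and -0.08 ± 0.36 in liproxstatin-1, and IQGAP3, linked to proliferation, of 0.03 ± 0.10 and 0.15 ± 0.11. None was called, and whether they differ from those of IQGAP2 was not tested. IQGAP1 shared with IQGAP2 the gap within the TNF group: TNF library 1 had 72.6 CPM and TNF library 3 241.2 CPM, against 408 to 459 CPM in control. Between TNF and control it fell (-1.47 ± 0.34, adjusted p = 0.0150), as did IQGAP3 (-0.33 ± 0.10, adjusted p = 0.0458), but only 1 of these paralogs was called without TNF library 1 or without any 1 of the controls.

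**Figure D4:**
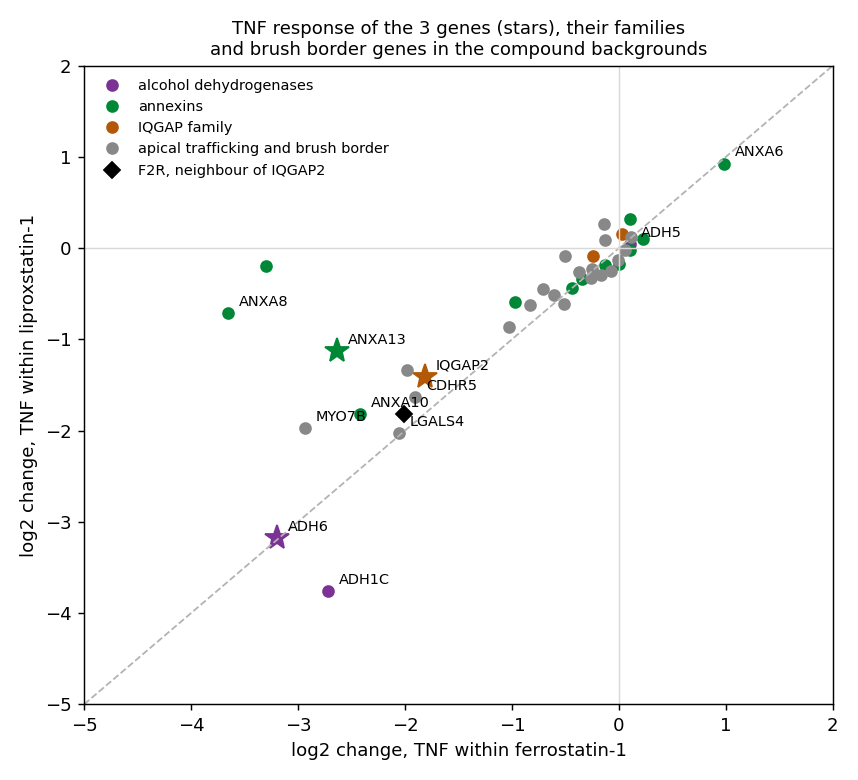
Fitted log2 difference with TNF within ferrostatin-1 (horizontal) and within liproxstatin-1 (vertical) for ADH6, ANXA13, IQGAP2 and the genes of their families and of the apical and brush border list; each circle or star is a gene, the diamond is F2R, the gene next to IQGAP2, and the dashed line marks equal values. ADH6 and ADH1C lie lowest on both axes among the alcohol dehydrogenases, and IQGAP1 and IQGAP3 lie near 0; MYO1A, at 0 counts in both libraries with TNF and liproxstatin-1, is left out.

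Genes of apical trafficking and the brush border, the microvillar surface of absorptive cells, moved down or not at all by the test. Of 21 tested, 11 fell and 0 rose within ferrostatin-1 (median -0.50), and 9 fell and 0 rose within liproxstatin-1 (median -0.33). All genes tested had 9.36% called lower and 8.76% higher within ferrostatin-1, and 7.03% and 7.57% within liproxstatin-1. MYO7B, a myosin of the complex that links microvillar tips, fell (-2.94 ± 0.19 and -1.97 ± 0.21), as did CDHR5, a protocadherin of that complex (-1.90 ± 0.28 and -1.63 ± 0.31). LGALS4, an apical sorting lectin (-2.06 ± 0.17 and -2.02 ± 0.19), and the apical scaffold SLC9A3R1 (-1.03 ± 0.12 and -0.86 ± 0.13) fell as well. Without any 1 library, 8 to 11 fell in ferrostatin-1 and 5 to 6 in liproxstatin-1.

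Among 26 transcription factors of intestine and liver, 12 fell and 1 rose within ferrostatin-1 (median -0.42), and 7 fell and 1 rose within liproxstatin-1 (median -0.20). The all-gene shares were 9.36% lower and 8.76% higher in ferrostatin-1, and 7.03% and 7.57% in liproxstatin-1. HNF4A, a nuclear receptor of both tissues, fell (-0.78 ± 0.12 and -0.82 ± 0.13), as did FOXA1 (-1.02 ± 0.09 and -0.81 ± 0.11) and KLF5 (-0.66 ± 0.09 and -0.72 ± 0.10). VDR, the vitamin D receptor, was the 1 that rose (1.19 ± 0.10 and 0.81 ± 0.11). Leaving out any 1 library gave 7 to 10 falls in ferrostatin-1 and 4 to 6 in liproxstatin-1.

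Between TNF and control, where the members themselves were chosen, these lists were counted as a description of their surroundings. Over all genes tested 6.44% were called lower and 8.24% higher. Of the 21 apical and brush border genes 9 fell and 0 rose (median -0.57, against -0.02 over all genes), and of the 26 transcription factors 5 fell and 2 rose (median -0.09). Annexins had 2 falls and 3 rises (median 0.15), aldehyde and retinoid enzymes 3 falls and 7 rises (median 0.10), and S100 genes 0 of either. Without TNF library 3, 9 apical genes fell and 2 rose, 8 transcription factors fell and 3 rose, and 10 aldehyde and retinoid enzymes rose. Of these enzymes 4 rose without TNF library 1 or control library 1. Leaving out any 1 library gave 1 to 2 falls and 1 to 3 rises of annexins, with 1 fall without any 1 of the controls.

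The genes whose log2 CPM over the 14 libraries was most like that of each member were then listed from 14891 genes with a mean count of at least 50. For IQGAP2 they were ONECUT2, a homeobox factor (r = 0.988), NOSTRIN, an adaptor that binds nitric oxide synthase (0.987), COBLL1 (0.987), TFPI, an inhibitor of coagulation (0.976), and EML4, a microtubule protein (0.969). For ADH6 they were TMX4, a thioredoxin-related membrane protein (0.966), the coagulation factor F5 (0.965), COBLL1 (0.959), IQGAP2 (0.959) and ENOSF1 (0.959). For ANXA13 they were the noncoding AC079414 (0.876), ADH6 (0.861), WDFY2 (0.845), ENOSF1 (0.842) and COBLL1 (0.836). COBLL1 was on all 3 lists. IQGAP2 was on that of ADH6, but ADH6 was not on that of IQGAP2.

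By Spearman's rank correlation 1, 1 and 3 of the 5 genes were kept for ADH6, ANXA13 and IQGAP2. By Pearson correlation over the 6 group means 1, 0 and 2 were kept. Likeness of pattern was not likeness of size. TMX4 kept at least 26 CPM with TNF, and its fitted difference within ferrostatin-1 was -0.86, whereas that of ADH6 was -3.19. F5 came closer, with -2.25 in ferrostatin-1 and -1.60 in liproxstatin-1. Of the 22179 genes, 7 others were at least as low as ADH6 in all 3 comparisons with TNF, 10 for ANXA13 and 39 for IQGAP2. TNF against control, on which the members were chosen, is 1 of the 3, so nothing is read from these counts.

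F2R, the thrombin receptor PAR1, is the next gene above IQGAP2 on chromosome 5 and on the same strand. It had 167.8, 152.8 and 150.4 CPM in control, 104.6 and 92.9 CPM in ferrostatin-1 and 171.6 and 171.4 CPM in liproxstatin-1. With TNF it had 43.0 and 41.0 CPM, with TNF and ferrostatin-1 22.4 to 27.2 CPM, and with TNF and liproxstatin-1 48.2 and 49.0 CPM. As for IQGAP2, ferrostatin-1 alone was below control and liproxstatin-1 was not, but F2R was lower with TNF and ferrostatin-1 than with TNF alone.

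F2R fell with TNF within ferrostatin-1 (log2 change -2.01, adjusted p = 3.7e-07) and within liproxstatin-1 (-1.82, adjusted p = 3.0e-06). F2RL2, a thrombin receptor gene that lies inside IQGAP2 on the other strand, held 4 to 34 counts and had differences of -1.92 (adjusted p = 0.0492) and -2.05 (adjusted p = 0.0763). Reads of IQGAP2 may be counted there if strand was not used. Next to ANXA13, KLHL38 held 0 to 24 counts, and FAM91A1, at 273 CPM in control, had differences of -0.29 and -0.20, neither called.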

How the data were processed

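Per the labels' protocols, poly(A) RNA was sequenced as paired ends from dUTP libraries. A deposited table gives the authors' counts, as whole numbers, and their FPKM for each gene. The submitters' processing notes name StringTie 1.3.4d, HISAT2 2.0.4, cutadapt 1.9, DESeq2 and edgeR, without role or order. The sources used here do not give the build, annotation, counting program or strand setting, or whether 1 count is a fragment. Library numbers come from the count columns. For ferrostatin-1, liproxstatin-1 and TNF these are 1 and 3, the titles have 1 and 2, and columns were tied to the group alone. Their 6 FPKM columns were not used. The design names 3 technical replicates a group, and 14 libraries were analysed here.

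In edgeR 4.0.16 (R 4.3.3), counts were filtered by filterByExpr, given TMM factors, which ran from 0.947 to 1.05, and fitted over all 6 groups. Each comparison used the quasi-likelihood test with Benjamini-Hochberg adjustment over 22179 genes at 0.05. SE values are the log2 change over the square root of F, and intervals are t intervals on them. Both are approximate near 0 counts and unreliable near a log2 change of 0. FPKM served only to compare levels between genes in control cells. The 3 genes were tested in 5 comparisons, 15 tests in all. The code was tested on simulated data with 200 changed genes.

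The members and gene lists were chosen with earlier results of these data known. Named genes were the 3 members, up to 4 genes per list called with TNF in both compounds by adjusted p (then against control), families by level, the 5 genes most like each member (prior count 0.5) and neighbouring genes. IQGAP2 was counted as a member, not in its family list. ADH4, ADH7, LRAT, S100A12, S100B, TMIGD1 and the markers CD3E, MS4A1 and FGB were not analysed here. Results of items withheld for evaluation are not reported here. Alternatives were RLE scaling, no filter, a filter of CPM 1 in 3 libraries, DESeq2 1.42.0, limma 3.58.1 voom, compared groups only, a 2-fold threshold, a replicate block and each library left out. List counts without each library were added after the data were seen. Where column numbers match the titles (control, TNF with ferrostatin-1, TNF with liproxstatin-1), same-numbered libraries did not deviate together (correlations -0.0060 to 0.0337); the other columns were not checked.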

Additional observations from a re-analysis of the deposited data

How the results depend on the processing

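No difference of ADH6, ANXA13 or IQGAP2 that had passed its test changed direction in any setting run. With a 2-fold threshold, ANXA13 (-2.63) and IQGAP2 (-1.81) within ferrostatin-1 and IQGAP2 within liproxstatin-1 (-1.41) lost their calls, and the genes called in the first 4 tested comparisons went from 4019, 3240, 23 and 170 to 297, 199, 1 and 5. With the compared groups alone they were 6937, 5943, 93 and 575, with 4 for the difference between TNF responses, and IQGAP2 passed between compounds without TNF (0.66, adjusted p = 0.0297) and with it (1.06, adjusted p = 0.00357), as did ANXA13 with TNF (2.51, adjusted p = 0.0427). Limma voom called 7240, 6848, 302, 813 and 8, and passed ANXA13 within liproxstatin-1 (-1.19), ADH6 (1.45) and IQGAP2 (0.66) between compounds without TNF, and ANXA13 (2.62) and IQGAP2 (1.05) with it. DESeq2 called 211, 467 and 19 in the last 3 comparisons and passed ADH6 without TNF (1.44) and ANXA13 with TNF (2.51). Without a filter 105 genes were called between compounds with TNF. Library numbers did not pair the samples in the groups where this was checked. With the replicate block over all groups IQGAP2 within liproxstatin-1 lost its call (-1.29), and 1781, 10 and 67 genes were called within liproxstatin-1 and between compounds without and with TNF. With the block in the compared groups only, the last was 368 and IQGAP2 passed (1.04, adjusted p = 0.00888). Leaving out each library gave -2.88 to -2.29 for ANXA13 within ferrostatin-1, called except without ferrostatin-1 library 3, and -1.46 to -1.38 for IQGAP2 within liproxstatin-1, never called. The genes called were then 1877 to 2870, 1328 to 1485, 3 to 17, 26 to 65 and 0 to 3. The counts were lowest without ferrostatin-1 library 1, TNF with liproxstatin-1 library 2, liproxstatin-1 library 1 and TNF with liproxstatin-1 library 1 in the first 4. Fewer samples enter these fits, and otherwise the cause was not tested. With TNF, ADH6 and ANXA13 rest on 0 to 122 counts a library, which limits their precision. The remaining shares from FPKM were not run, because part of the FPKM columns could not be matched to samples.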
